A study of Mus musculus with 86 samples.

Results

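Transcripts of 10 genes for secreted proteins of the nose and its glands were followed through the RNA of 3 forebrain regions of wild house mice, namely prefrontal cortex, hypothalamus and hippocampus, as measured by RNA-seq. The genes were Obp1a, Obp1b, Gm14744, 5430402E10Rik, Lcn11, Mup4, Mup5, Bpifb9a, Bpifb9b and Reg3g, and all 10 were found among the 35275 genes of the deposited count table. They were chosen by their measured counts, because these were high in the libraries of single animals. Their levels are therefore given as a description. The comparisons between groups at the end hold the same libraries, so their p-values are no independent evidence about these genes.

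Small lipocalins carry odorants and pheromones in their barrel-shaped pocket, and nasal glands secrete them into the mucus over the olfactory epithelium. Obp1a and Obp1b encode odorant-binding proteins of this kind, and Gm14744 and 5430402E10Rik encode related lipocalins of the same cluster on the X chromosome. Mup4 and Mup5 belong to the major urinary proteins, a lipocalin family known from liver, urine and glands of the head, and Lcn11 is a further lipocalin. Bpifb9a and Bpifb9b encode secreted BPI-fold proteins, a family of lipid-binding proteins of the airway and nose. Reg3g encodes a secreted lectin that binds bacteria at epithelial surfaces. None of these genes is a marker of forebrain neurons or glia.

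The mice were free-ranging, untreated wild house mice caught outside the breeding season, and the labels give no age, strain or engineered allele. Females and males with large or small social network size, which the labels call high or low gregariousness, were sampled, and 1 library was made from each region of each animal. There were 7 females with large and 7 with small network size, and 7 males with large and 8 with small network size, so 29 animals gave 86 libraries. The hypothalamus of 1 male with small network size has no library. The regions were punched from frozen coronal sections, so each library holds all cell types within the punch, and network size was observed in the barn rather than assigned.

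The nearest relatives among the genes are almost the same in sequence, which limits how their reads can be told apart. The first 90 coding bases of the odorant-binding genes are shown because reads of Obp1b and its neighbour Gm14743, and of Gm14744 and 5430402E10Rik, can be split within these pairs. The bases come from GENCODE vM21 transcripts on the GRCm38 build and are written 5′ to 3′ of the transcript, and each genomic span includes an intron. Capitals mark the positions at which Gm14744 and 5430402E10Rik differ.
Obp1a, chrX:78090806-78091322, minus strand: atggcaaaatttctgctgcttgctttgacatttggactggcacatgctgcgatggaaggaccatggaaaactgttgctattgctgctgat
Obp1b, chrX:78186827-78187365, plus strand: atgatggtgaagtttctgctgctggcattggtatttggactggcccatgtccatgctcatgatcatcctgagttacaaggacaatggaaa
Gm14743, chrX:78245373-78245911, minus strand: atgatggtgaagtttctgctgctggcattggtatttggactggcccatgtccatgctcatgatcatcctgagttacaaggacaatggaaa
Gm14744, chrX:77864813-77865386, plus strand: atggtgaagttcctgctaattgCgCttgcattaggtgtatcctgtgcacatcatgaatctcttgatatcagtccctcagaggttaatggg
5430402E10Rik, chrX:77924440-77925007, minus strand: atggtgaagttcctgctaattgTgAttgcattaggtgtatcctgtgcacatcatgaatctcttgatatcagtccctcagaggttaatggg

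Obp1b and Gm14743 did not differ in these 90 bases, and Gm14744 and 5430402E10Rik differed at 2 of them. Over whole transcripts, identity was 99.3% between Obp1b and Gm14743, 99% between Gm14744 and 5430402E10Rik, and 99.3% between Bpifb9a and Bpifb9b. Mup4 and Mup5 were 92.8% identical, and Obp1a and Obp1b 72.5%. Of all 150-base stretches, the read length, 52.8% in Obp1b were shared with Gm14743. The share was 43.5% in Bpifb9a and 43.4% in Bpifb9b, each with the other, 23.2% in Gm14744 and 17.3% in 5430402E10Rik. No 150-base stretch of Obp1a, Mup4, Mup5, Lcn11 or Reg3g occurred in the transcript of another gene, so their counts are the ones least open to such splitting. Whether reads that fit more than 1 gene were dropped or assigned is not given in the sources used here. If they were dropped, the counts of Obp1b, Bpifb9a, Bpifb9b, Gm14744 and 5430402E10Rik are too low.

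The genes lie on 4 chromosomes, and all 10 are annotated as protein coding. On the X chromosome, Gm14744 spans positions 77864758 to 77870033, 5430402E10Rik 77919786 to 77925062, Obp1a 78085505 to 78091374 and Obp1b 78186777 to 78192292. Bpifb9a (154257854 to 154271245) and Bpifb9b (154307227 to 154320646) are neighbours on chromosome 2, which also holds Lcn11 (25777017 to 25780279). Mup4 (59956804 to 59960710) and Mup5 (61831319 to 61835233) are on chromosome 4, and Reg3g (78466269 to 78468872) is on chromosome 6.

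The promoters of 9 of the 10 genes were found in the RefSeq table for GRCm38.p6, all except Mup5. The letters TATAAA, searched on both strands in the 100 bases before the start, occurred in 6 of the 9 and in 5.56% of 32851 promoters of the table. In the same stretch, CCAAT occurred in 5 of the 9 and in 18.9% of all promoters. Some of the 9 are copies of each other, so they are not independent promoters. Those of Bpifb9a and Bpifb9b, for example, were the same at 279 of 292 aligned bases. The 100 bases before the start are shown for the 6 genes with TATAAA, in capitals, because these genes were high together in the same libraries.
Obp1a, chrX:78091375-78091474, minus strand: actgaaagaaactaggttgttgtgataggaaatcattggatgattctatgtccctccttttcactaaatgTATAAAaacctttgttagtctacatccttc
Obp1b, chrX:78186708-78186807, plus strand: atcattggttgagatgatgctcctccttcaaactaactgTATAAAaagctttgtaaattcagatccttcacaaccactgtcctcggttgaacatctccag
Bpifb9a, chr2:154257779-154257878, plus strand: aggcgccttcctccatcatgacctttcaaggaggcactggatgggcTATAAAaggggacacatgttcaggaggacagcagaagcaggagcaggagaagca
Bpifb9b, chr2:154307144-154307243, plus strand: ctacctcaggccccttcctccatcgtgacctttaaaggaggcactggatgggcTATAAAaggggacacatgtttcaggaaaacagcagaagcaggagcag
Mup4, chr4:59960668-59960767, minus strand: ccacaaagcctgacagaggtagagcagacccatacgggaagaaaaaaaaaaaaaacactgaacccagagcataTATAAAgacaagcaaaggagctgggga
Reg3g, chr6:78468875-78468974, minus strand: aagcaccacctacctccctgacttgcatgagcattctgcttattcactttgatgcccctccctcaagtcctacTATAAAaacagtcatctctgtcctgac

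The promoters of Gm14744, 5430402E10Rik and Lcn11 held no TATAAA in the 100 bases before the start. Gm14744 and 5430402E10Rik were the same at 298 of 300 bases around the start.

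The libraries held 33711824 to 81865801 counts in all (median 44778419), and levels are given as counts scaled to a total of 1000000 (CPM). A single count was worth 0.0223 CPM at the median depth, and a count of 0 allows up to 0.0366 CPM in the deepest and 0.0890 CPM in the shallowest library, for counting error only. The labelled sex matched the sex-linked genes in 86 of 86 libraries, and no library pair held identical values. Hypothalamic peptide genes summed to 89.7 to 1562 CPM in the hypothalamus and to at most 80.2 CPM in any other library. Cortical neuron genes summed to 641 to 900 CPM in the prefrontal cortex and to at most 391 CPM elsewhere. The list of hippocampal neuron genes did not separate the hippocampus (365 to 600 CPM) from the hypothalamus (362 to 562 CPM).

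The 10 genes together had 5052 counts in the 86 libraries, and 81.7% of them were in the 3 libraries of 1 animal. This was animal 8, a female with small network size. The summed counts were 2722 in the animal's prefrontal cortex, 872 in its hypothalamus and 533 in its hippocampus. These are 69.3, 17.8 and 12.3 CPM. In the other 83 libraries, the sum lay between 0 and 155, with a median of 9. In such punches, more cells of a type and more RNA per cell cannot be told apart.

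**Figure D1:**
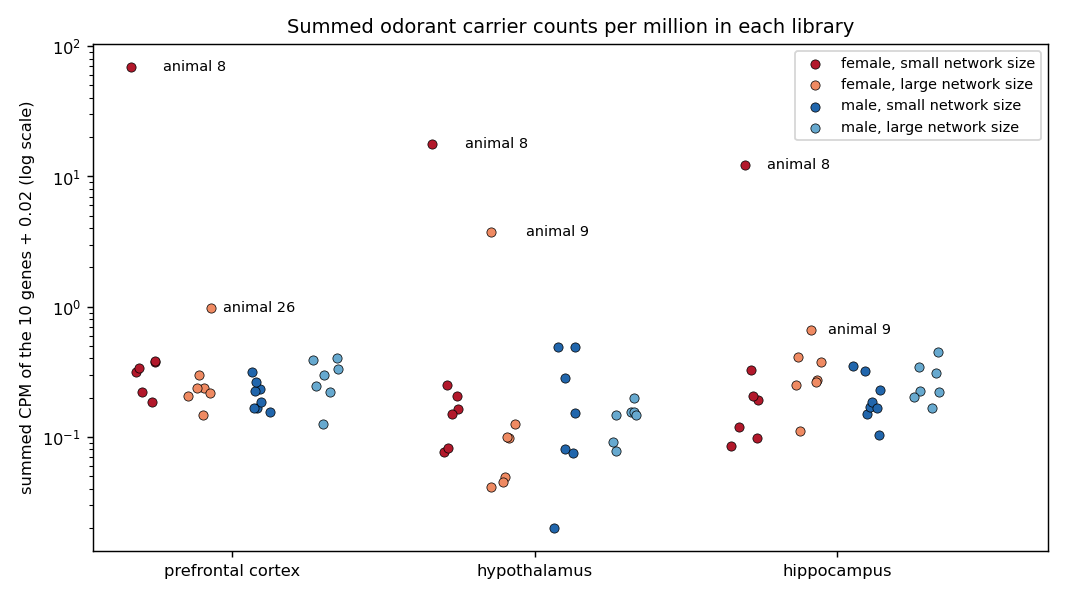
Each point is 1 library, placed by region and coloured by sex and network size, and the vertical log axis gives the summed CPM of the 10 genes plus 0.02. The libraries of animal 8 lie at 69.3, 17.8 and 12.3 CPM, and the hypothalamus of animal 9 is the highest of all others at 3.74 CPM.

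All 10 genes had counts in each of the 3 libraries of animal 8, and no other library had counts for more than 8 of them. Of the 30 values of animal 8, 1 for each gene and region, 29 were the highest of their region. The exception was Reg3g in the hippocampus, with 5 counts against 6 in animal 10. The hypothalamus of animal 15, a male with small network size, was the only library with no count on any of the 10 genes.

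Among the odorant-binding lipocalins, Obp1a had 507 counts in the prefrontal cortex of animal 8, 186 in its hypothalamus and 137 in its hippocampus. The other 83 libraries had between 0 and 29 counts with a median of 0, so the ranges did not overlap. Its closest relative on the list, Obp1b, had 241, 95 and 51 counts in the same order, against 0 to 9 in the other libraries. The ratio of Obp1a to Obp1b was 2.10, 1.96 and 2.69 in the 3 libraries. If reads shared by Obp1b and Gm14743 were dropped in the counting, these ratios are too high.

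Gm14744 had 449 counts in the prefrontal cortex and 88 each in the hypothalamus and hippocampus of animal 8, and 5430402E10Rik had 363, 143 and 106. Outside that animal, Gm14744 was counted in 2 of 83 libraries, with at most 2 counts, and 5430402E10Rik in 5, with at most 4. These were the genes most confined to a single animal, with 99.5% and 98.6% of all their counts in animal 8. Obp1b followed with 96.3%, Mup4 with 95.1% and Obp1a with 94.2%. The ratio of Gm14744 to 5430402E10Rik was 1.24, 0.615 and 0.830, but reads of this pair can be exchanged as shown above.

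Of the urinary protein genes, Mup4 had 99, 31 and 26 counts in the prefrontal cortex, hypothalamus and hippocampus of animal 8 and at most 2 in any other library. Mup5 had 121, 34 and 18. Unlike Mup4, it was also counted at low levels in other animals, and this depended on the region. In the prefrontal cortex of the other 28 animals, Mup5 had counts in 26 libraries with a median of 4 and a highest value of 10. In the hippocampus it had counts in 26 of 28 libraries, with a median of 3 and a highest value of 8. In the hypothalamus it had counts in only 2 of 27 libraries, with a median of 0 and a highest value of 2. The ranges overlapped at these few counts, and the region difference was not tested.

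Bpifb9b had the most counts of all 10 genes in the prefrontal cortex and hypothalamus of animal 8, with 554 and 209, and 70 in its hippocampus. Bpifb9a had 165, 51 and 16. Both were counted at 1 or a few reads in most libraries of the other animals, Bpifb9b in 71 and Bpifb9a in 65 of 83, each with a median of 2. This low level was present in all 3 regions, with medians of 3, 2 and 2 for Bpifb9b and of 2, 1 and 2 for Bpifb9a in the prefrontal cortex, hypothalamus and hippocampus. Animal 8 thus held 72.9% of all Bpifb9b and 51.8% of all Bpifb9a counts, smaller shares than for the odorant-binding genes.

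Lcn11 had 53, 13 and 16 counts in the prefrontal cortex, hypothalamus and hippocampus of animal 8, and 0 to 3 in the other libraries. Reg3g, the epithelial lectin, had 170, 22 and 5 counts. It was counted in 19 of the other 83 libraries and reached 10 counts there, so that its range in the hippocampus overlapped with that of the other animals.

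**Figure D2:**
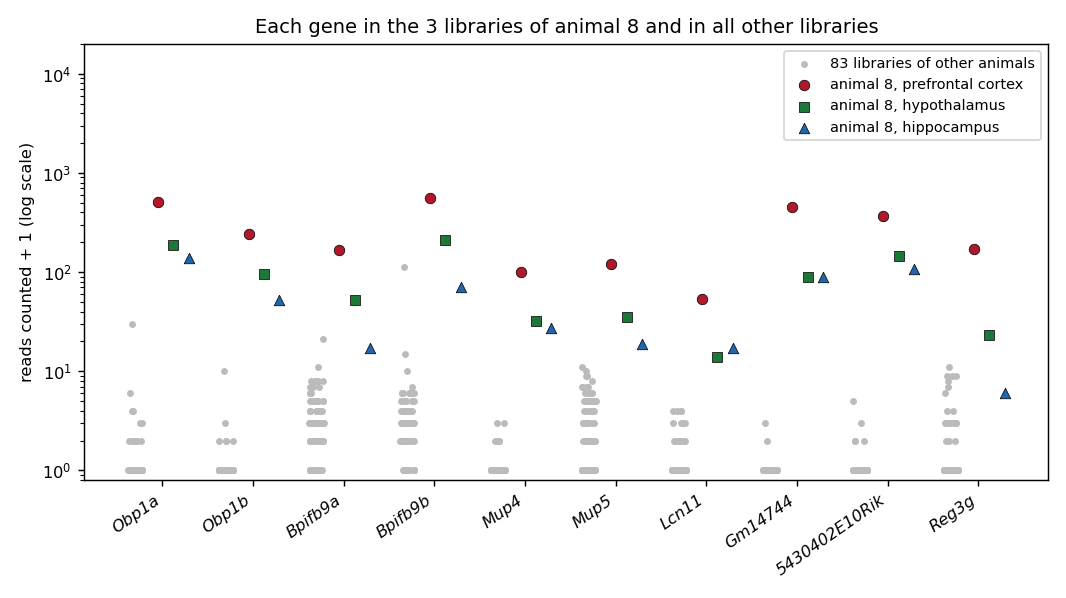
Reads counted on each gene plus 1, on a log axis, in the 3 libraries of animal 8 (coloured symbols) and in the 83 libraries of the other animals (grey points). Only the hippocampus value of Reg3g, 5 counts, lies at or below the highest value of its own region, 6 counts, in another animal.

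Per kilobase of exon, Obp1a was the highest of the 10 genes in each region of animal 8, with 17.04 CPM per kilobase in the cortical library, 5.02 in the hypothalamic and 4.18 in the hippocampal library. In the prefrontal cortex it was followed by Gm14744 (14.3), 5430402E10Rik (11.6), Obp1b (7.70) and Bpifb9b (6.82 CPM per kilobase). The remaining genes lay between 1.85, for Bpifb9a, and 3.33, for Mup5. The length used was that of all annotated exons of a gene joined. For Reg3g this was 2114 bases, against 771 bases in a single coding transcript, so its value would be higher on the latter. The order of Obp1a and Gm14744 depends on how reads shared between genes were counted. The 5 highest genes were the same in all 3 regions, and the 4 of them that encode lipocalins are neighbours on the X chromosome.

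The make-up of these reads was compared between the regions of animal 8 as each gene's share of the reads on all 10 genes, with 95% Wilson intervals that cover counting error only. Mup4 held 3.64% (2.997 to 4.41) of the reads in the cortical, 3.56% (2.52 to 5.002) in the hypothalamic and 4.88% (3.35 to 7.05) in the hippocampal library, so its intervals overlapped. The intervals of Obp1b also overlapped, with shares of 8.85%, 10.9% and 9.57%. The share of Reg3g was the one that differed most as a ratio, from 6.25% (5.40 to 7.22) in the cortical to 2.52% (1.67 to 3.79) in the hypothalamic and 0.938% (0.401 to 2.18) in the hippocampal library. In percentage points Bpifb9b differed most, with 20.4% (18.9 to 21.9), 23.97% (21.3 to 26.9) and 13.1% (10.5 to 16.3). Obp1a held 18.6% (17.2 to 20.1), 21.3% (18.7 to 24.2) and 25.7% (22.2 to 29.6). The hippocampus library thus had relatively more Obp1a and less Reg3g than the prefrontal cortex library, and each region is a single library.

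**Figure D3:**
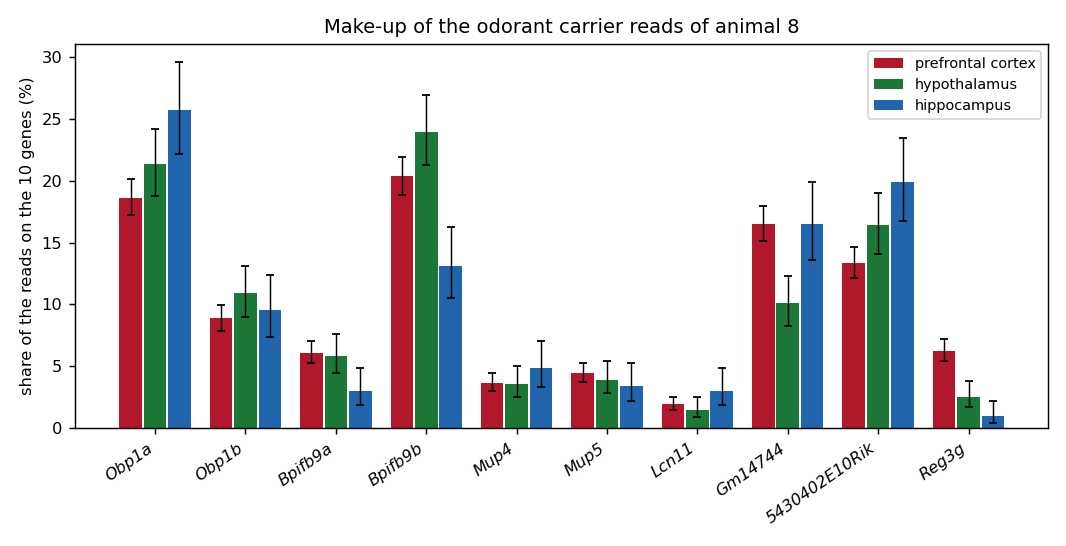
Bars give each gene's share, in percent, of the reads on all 10 genes in the prefrontal cortex, hypothalamus and hippocampus of animal 8, with 95% Wilson intervals as error bars. The Reg3g share is 6.25% in the prefrontal cortex and 0.938% in the hippocampus, while the intervals of Mup4 overlap in all 3 regions.

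In 5 libraries of other animals the 10 genes summed to more than 20 counts. The highest was the hypothalamus of animal 9, a female with large network size, with 155 counts (3.74 CPM). There, Bpifb9b had 112 and Bpifb9a 20 of the counts, Reg3g had 10 and Obp1a 5, and Mup4, Mup5 and Lcn11 had none. The ratio of Obp1a to Bpifb9b was 0.0446 in this library and between 0.890 and 1.96 in animal 8. The hippocampus of animal 9 had 24 counts, of which 14 were on Bpifb9b, 7 on Bpifb9a and none on Obp1a.

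The prefrontal cortex of animal 26, also a female with large network size, had the opposite make-up. Its 48 counts (0.952 CPM) included 29 on Obp1a and 9 on Obp1b, but 1 on Bpifb9b and 2 on Bpifb9a. The hypothalamus and hippocampus of animal 26 had 3 and 9 counts. The other libraries above 20 counts were the hypothalamus of animal 6, with 22 counts (0.466 CPM), and the prefrontal cortex of animal 1, with 21 counts (0.280 CPM) in one of the deepest libraries.

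The other genes whose levels followed those of the 10 across libraries were ranked by Pearson correlation of log2(CPM + 0.1) with the mean of the 10 over 86 libraries, among 24115 genes. The libraries share animals, sections and depth, so r is a description. Gm14743 came first (r = 0.971), with 154, 59 and 14 counts in the prefrontal cortex, hypothalamus and hippocampus of animal 8 and at most 4 in any other library. The pseudogene Gm14750, whose transcript was 99.2% identical to 5430402E10Rik, came second (r = 0.951), with 111, 35 and 5 counts in animal 8 and none elsewhere. Both are near-identical copies that can take reads of the listed genes.

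Then came Dmbt1 (r = 0.743), a mucosal glycoprotein gene, Gal3st2b (r = 0.675) and Obp2a (r = 0.665), an odorant-binding protein gene of chromosome 2. Dmbt1 had 20, 4 and 4 counts, Gal3st2b 27, 5 and 1, and Obp2a 11, 3 and 4. The other genes among the 20 most like the 10 had r between 0.516 and 0.613 and included the airway genes Bpifa1, Vmo1, Muc5b, Pigr and Chil6, the immunoglobulin segment Igkv9-120 and the olfactory receptor Olfr115. Without the 3 libraries of animal 8, an alternative chosen after seeing the data, 3 of the 20 remained and the highest r was 0.497, so the ranking rested on that animal.

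Relatives of the 10 genes were counted as a list. Of 35 other secreted lipocalins and BPI-fold genes, 32 were in the table. In the prefrontal cortex of animal 8, 10 of them had counts, 6 with the highest CPM of the region. These numbers were 10 and 2 in that of animal 30, and 8 and 0 in that of animal 26. Bpifb3 had 7219 counts in the prefrontal cortex of animal 8, Bpifa1 571, Bpifb4 435 and Gm14743 154. The list summed to 217 CPM in that library and to 201 CPM in the prefrontal cortex of animal 30, in which the 10 genes had 18 counts. Bpifb4 had 2547 and Bpifb6 470 counts in animal 30, against 435 and 66 in animal 8, so these relatives were not particular to animal 8. Among the urinary protein genes other than Mup4 and Mup5, only Mup3 had a count in that library, 1. Mup6 had 10 counts in the hypothalamus of animal 8, 13 in that of animal 7 and 26 in that of animal 12, so animal 8 was not set apart for it. The liver gene Alb had 0 counts in all 3 libraries of animal 8, while it reached 1561 counts in the hypothalamus of animal 29. The liver list of 9 genes, which includes genes that other tissues express, summed to 1.55 CPM in the prefrontal cortex of animal 8 (second of 29, median 0.277 CPM), to 0.572 CPM in its hypothalamus and to 0.693 CPM in its hippocampus. Cyp2e1 made 58 of the 61 liver list counts in the prefrontal cortex of animal 8, and it had 156 counts in that of animal 30.

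Transcripts of the olfactory mucosa itself were high in the prefrontal cortex of animal 8, but they were also high in libraries in which the 10 genes were near 0. Omp, the olfactory marker protein gene of mature olfactory sensory neurons, had 4269 counts in the prefrontal cortex of animal 8 and 7780 in that of animal 30, a male with large network size. Cyp2g1, a cytochrome P450 gene of the olfactory mucosa, had 1293 and 2150 counts, and Bpifb3 had 7219 and 6354. The 12 genes of sensory neurons of the nose summed to 234 CPM in animal 8 and 353 CPM in animal 30, against a median of 53.7 CPM in this region. Yet the 10 genes had 2722 counts in animal 8 and 18 in animal 30. Obp1a, Obp1b, Bpifb9a, Mup4, Lcn11, Gm14744 and 5430402E10Rik had no count in the prefrontal cortex of animal 30, Bpifb9b had 4, Mup5 6 and Reg3g 8.

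The list of supporting cells of the olfactory epithelium was summed over Cyp2g1, Cyp2a5, Ugt2a2, Cbr2 and Sec14l3. Ermn, also a gene of oligodendrocytes, was left out after its values were seen. The sum was 332 CPM in the prefrontal cortex of animal 30, 235 CPM in that of animal 8 and 161 CPM in that of animal 29, against a median of 2.38 CPM in this region. The prefrontal cortex of animal 29, a male with large network size, had 3332 Omp counts and 12 counts on the 10 genes. In the hypothalamus, supporting cell genes reached 66.0 CPM in animal 7, 59.8 CPM in animal 9, 40.5 CPM in animal 6 and 39.8 CPM in animal 8, and the 10 genes had 19, 155, 22 and 872 counts.

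In the hippocampus of animal 8, supporting cell genes summed to 7.62 CPM, the third highest of the region, against a median of 3.66 CPM. Omp had 78 counts there against a median of 26, and Cyp2g1 had 16 against 1. The 10 genes had 533 counts against a median of 9. The hippocampus of animal 6 had the highest supporting cell sum of the region, 14.3 CPM, and 6 counts on the 10 genes. From the prefrontal cortex to the hippocampus of animal 8, the 10 genes were 5.63 times and the supporting cell genes 30.9 times lower in CPM. Of the 330 supporting cell counts in this hippocampus, Sec14l3 made 180 and Cbr2 80. These had medians of 83 and 55 counts in the hippocampus of the other animals, so the supporting cell sum includes a level common in this region. The other supporting cell genes fell further, Cyp2g1 from 32.9 to 0.369 CPM, Ugt2a2 from 47.1 to 0.485 CPM and Cyp2a5 from 90.4 to 0.762 CPM. The ratio of Obp1a to Omp was 0.119 in the cortical, 0.227 in the hypothalamic and 1.76 in the hippocampal library of animal 8. Levels of the 10 genes and of the mucosa genes were thus not in a fixed proportion across libraries.

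**Figure D4:**
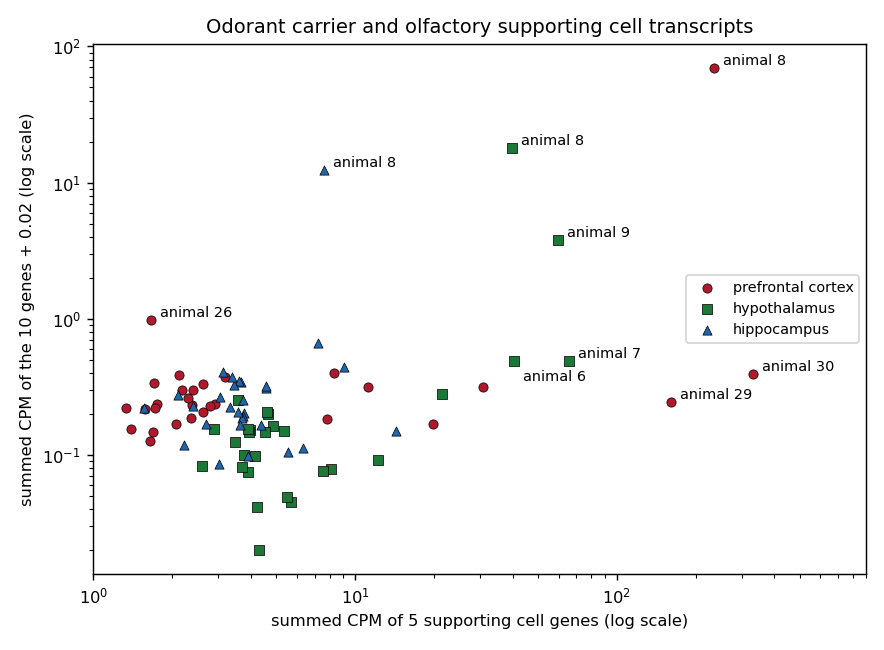
Summed CPM of the 10 genes plus 0.02 (vertical log axis) against summed CPM of 5 supporting cell genes of the olfactory epithelium (horizontal log axis), with 1 symbol for each of the 86 libraries. The prefrontal cortex of animal 30 has the highest supporting cell sum (332 CPM) with 0.372 CPM on the 10 genes, and the hippocampus of animal 8 has 12.3 CPM on the 10 genes with 7.62 CPM of supporting cell genes.

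Of the 16 genes of nasal glands and respiratory epithelium, 15 had counts in the prefrontal cortex of animal 8, and 5 had the highest CPM of the region. These numbers were 14 and 8 in that of animal 30, and 13 and 0 in that of animal 26. The 16 genes summed to 108 CPM in the prefrontal cortex of animal 8, second to animal 30, against a median of 4.50 CPM. Sec14l3, which is also among the supporting cell genes, made 1743 of the 4235 counts of this list in animal 8 and 3754 of 9462 in animal 30. Muc5b, an airway mucin gene, had 829 counts in animal 8 and 826 in animal 30, Ltf had 814 and 1678, and Scgb1c1 200 and 1996. Dmbt1 had 20 counts in animal 8 and 0 in animal 30. Salivary and lacrimal gland genes ranked 28 of 29 in both the prefrontal cortex and the hippocampus of animal 8 and 22 of 28 in its hypothalamus. That rank was set, in the prefrontal cortex, by Amy1 (94 counts) and Lpo (59), which were counted in all 86 libraries. Dcpp1 and Dcpp2, with 4 and 6 counts against medians of 0, went the other way, and they had 10 and 5 counts in the prefrontal cortex of animal 30. Trpc2, the channel gene of vomeronasal neurons, was at 0 in all 86 libraries, also in those with high Omp counts. Whether reads on Trpc2 could be counted at all was not tested, so nothing is read from this 0. In the prefrontal cortex of animal 8, keratinocyte genes ranked 28, skeletal muscle genes 24, bone and cartilage genes 13, blood genes 12 and olfactory bulb genes 8 of 29. The keratinocyte sum was set by Lor (402 counts), Krt10 (87) and Krt1 (71), while Krt5 had 30 counts against a median of 1 and Krt14 had 4 against 0. Pituitary genes were the lowest of 29. Choroid plexus genes ranked second, at 15.04 CPM against a median of 5.63 CPM, and their part in the counts of the 10 genes was not tested.

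The genes in largest excess in the prefrontal cortex of animal 8 relative to the other libraries of this region were led by genes known from the olfactory mucosa and airway. The ratio of CPM + 0.1 to the median of the others was 1492 for Bpifb3, 389 for Ugt2a2, 348 for Cyp2a5, 260 for Cyp2g1 and 201 for Vmo1. The sixth was Xist (156), for which a female was set against a median over both sexes, and the pseudogene Rps2-ps10 (115) followed at rank 8. On the same scale it was 130 for Obp1a, 115 for Gm14744, 93.4 for 5430402E10Rik, 86.8 for Bpifb9b and 62.3 for Obp1b, and between 14.5 and 44.3 for the other 5. By CPM, Ugt2a2 and Cyp2g1 were higher in the prefrontal cortex of animal 30 (72.7 and 44.4) than in that of animal 8 (47.1 and 32.9). Cyp2a5 was close, with 86.6 CPM in animal 30 and 90.4 CPM in animal 8. Bpifb3 was higher in animal 8, with 184 against 131 CPM, and so was each of the 10 genes.

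The study asked which genes differ with social network size in each sex and region. With edgeR's filter on low counts, 0 of the 10 genes entered any of the 9 comparisons, that is animals with small against large network size in each sex and region and males against females in each region. When every gene counted at least once in the libraries compared was kept, 7 to 10 of them entered, and 0 were called at an adjusted p of 0.05 in any comparison. In that fit, 0.0216%, 0.0107% and 0.00363% of all genes were called between females with small and large network size in the prefrontal cortex, hypothalamus and hippocampus. Between males the share was 0% in each region. Between males and females it was 0.0694%, 0.0862% and 0.0769%.

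In the prefrontal cortex of females, Obp1a had 0 to 507 counts with a median of 0 in the 7 animals with small network size and 0 to 29 with a median of 0 in the 7 with large network size. Apart from animals 8 and 26 the groups overlapped at 0 to 3 counts. The log2 fold change of small relative to large was 4.50 ± 1.61, with an adjusted p of 0.539 by edgeR's quasi-likelihood test. For Bpifb9b it was 5.54 ± 1.44, with an adjusted p of 0.370. The value after ± is the fold change divided by the square root of the F of that test, an approximate SE and not a fitted one. These fits use counts near 0, so the size of the fold change depends on the prior count.

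All 10 genes had an unadjusted p under 0.05 in the prefrontal cortex of females, beside 8.51% of all genes tested there, and their median log2 fold change was 5.32 beside -0.0041 for all genes. Without the library of animal 8, 9 genes remained in the fit, 0 had an unadjusted p under 0.05, beside 6.89% of all genes, and the median was 0.30. In the hypothalamus of females the number under 0.05 was 6 of 10, beside 6.77% of all genes, and 1 of 10 without animal 8, beside 7.18%, with the median log2 fold change at 4.66 and -1.27. In the hippocampus of females it was 5 of 10, beside 10.1% of all genes, and 1 of 7 without animal 8, beside 10.6%, with medians of 3.51 and -1.11. The comparison was used to choose the genes in so far as animal 8 belongs to one of its groups, and nothing about network size is read from it.

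In males the 10 genes summed to at most 22 counts in any library, and the number with an unadjusted p under 0.05 was 1 of 9 (prefrontal cortex), 0 of 9 (hypothalamus) and 1 of 7 (hippocampus), beside 4.35%, 3.93% and 4.25% of all genes. Between males and females, 6, 4 and 1 of 10 did in the prefrontal cortex, hypothalamus and hippocampus, beside 5.50%, 6.38% and 6.24% of all genes. Without the libraries of animal 8 these were 1 of 9, 0 of 10 and 0 of 8, beside 7.12%, 6.29% and 7.11% of all genes.

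The DESeq2 Wald test, which replaces extreme counts in groups of this size by fitted ones, also called 0 of the 10 genes. Its own filter left 1, 0 and 0 of the 10 with an adjusted p in the prefrontal cortex, hypothalamus and hippocampus of females, 9, 9 and 7 in males, and 4, 10 and 5 between the sexes. It called 0.366%, 0.217% and 0.53% of all genes in females, 0.00719%, 0.00358% and 0% in males, and 0.125%, 0.138% and 0.1% between males and females.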

How the data were processed

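Per the labels and the study's methods, RNA of punched brain regions was made into libraries with the NEBNext Ultra kit and sequenced in pairs of 150 bases. The authors mapped the reads to GRCm38 (mm10) with STAR, counted them per gene with HTSeq, and deposited these raw counts without normalization. The submitters' processing notes also name CASAVA 1.8.2 and DESeq2. The annotation release and strand setting of the counting are not given in the sources used here.

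Groups came from the labelled region, sex and gregariousness, and the number in a sample's title was taken as the animal. Gene symbols and transcripts came from GENCODE vM21, in which 34490 of 35275 identifiers were found. CPM used the total count of a library. The 10 genes, the lists and the tests were chosen with earlier results of these data known. Besides the 10 genes, the rule named the 20 others with the highest Pearson correlation of log2(CPM + 0.1) with their mean, among genes with at least 50 counts, and the 20 with the largest ratio of CPM + 0.1 in the library with the highest sum to the median of its region, among genes with at least 10 counts there. Genes named from the fixed lists as examples were chosen after their values were seen.

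Comparisons used edgeR 4.0.16 in R 4.3.3, with TMM normalization, filterByExpr (minimum count 10, minimum total 15, proportion 0.7), the quasi-likelihood test on the groups compared and Benjamini-Hochberg adjustment at 0.05. Since the filter removed all 10 genes, the values in the text are from the alternative with all genes with at least 1 count. The other alternatives were the size factors of DESeq2, the Wald test of DESeq2 1.42.0, robust dispersions, all 4 groups in one fit, and the fit without the library with the highest sum. Totals of 33711824 to 81865801 counts set the precision given in the text. Each animal gave 1 library per region, so p-values measure the spread between animals.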

Additional observations from a re-analysis of the deposited data

Results flagged for a closer look

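Values that lay far from the rest of their group of 7 or 8 animals were sought with Dixon's ratio, for the summed CPM of the 10 genes and for each gene, in groups with at least 10 counts in a library. Of 47 such sets of values, 38 held a value past the 95% limit. Chance gives about 1 in 20 only for sets that were not chosen by their values. Here the genes were chosen for high values in single animals and the sets for their counts, so 38 of 47 was fixed by the choice and is no test.

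In the prefrontal cortex of animal 8, the sum (69.3 CPM) was set apart from the other females with small network size, the next of which had 0.366 CPM. The single genes set apart there were Obp1a (12.9 CPM), Obp1b (6.13 CPM), Bpifb9a (4.199 CPM), Bpifb9b (14.1 CPM), Mup4 (2.52 CPM), Mup5 (3.08 CPM), Lcn11 (1.35 CPM), Gm14744 (11.4 CPM), 5430402E10Rik (9.24 CPM) and Reg3g (4.33 CPM). In the hypothalamus of animal 8, the sum was 17.8 CPM against 0.232 CPM in the next animal. The genes were Obp1a (3.80 CPM), Obp1b (1.94 CPM), Bpifb9a (1.04 CPM), Bpifb9b (4.27 CPM), Mup4 (0.633 CPM), Mup5 (0.694 CPM), Lcn11 (0.265 CPM), Gm14744 (1.80 CPM), 5430402E10Rik (2.92 CPM) and Reg3g (0.449 CPM). In the hippocampus of animal 8, the sum was 12.3 CPM against 0.307 CPM in the next animal. Mup5 did not pass the limit there, and Reg3g, with at most 5 counts in the group, was not tested. Obp1a (3.16 CPM), Obp1b (1.18 CPM), Bpifb9a (0.369 CPM), Bpifb9b (1.62 CPM), Mup4 (0.600 CPM), Lcn11 (0.369 CPM), Gm14744 (2.03 CPM) and 5430402E10Rik (2.45 CPM) passed the limit.

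Among females with large network size, the hypothalamus of animal 9 was set apart by the sum (3.74 CPM against 0.105 CPM in the next animal), Bpifb9a (0.483 CPM), Bpifb9b (2.71 CPM) and Reg3g (0.242 CPM). The hippocampus of animal 9 was set apart by Bpifb9b (0.374 CPM). The prefrontal cortex of animal 26 was set apart by the sum (0.952 CPM against 0.280 CPM) and by Obp1a (0.575 CPM). In males, no single gene reached the counts required for the test in any group, so single genes were not tested there. The sum was too low to be tested in the hypothalamus of males with large network size. In the other groups of males the sum was tested, and it set no library apart.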

How the results depend on the processing

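None of the 10 genes was called in any of the 9 comparisons under any alternative, in 69 repeats over comparisons and settings. With edgeR's filter none entered, so those repeats say nothing about them. No paired analysis was possible because the groups compared share no animal. The number of all genes called was 2, 1 and 0 in the 3 regions of females (prefrontal cortex, hypothalamus, hippocampus), 0 in each region of males, and 18, 22 and 19 between males and females, and it stayed within 1.5 times of these in 51 of 69 repeats. With all genes with at least 1 count it was 6, 3 and 1 in females. With the DESeq2 Wald test it was 74, 43 and 95 in females, 2 (prefrontal cortex) and 1 (hypothalamus) in males, and 29 and 40 between the sexes in the former and the latter region. Robust dispersions gave 5 in the prefrontal cortex of females, and with at least 1 count as well, a setting chosen after seeing the data, 6. With all 4 groups in one fit it was 4 (prefrontal cortex) and 0 (hypothalamus) in females and 1 in the prefrontal cortex of males. Without the library of animal 8, it was 2 to 4 (prefrontal cortex), 0 (hypothalamus) and 0 (hippocampus) in females, 21 to 23, 19 to 24 and 18 to 22 between the sexes, and without the male library with the highest sum 0 in each region of males, the higher values being those with at least 1 count, chosen after seeing the data. The causes of these changes were not tested.

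With TMM effective library sizes, the summed CPM of animal 8 was 79.7 (prefrontal cortex) and 16.4 (hypothalamus). Of the 20 genes most like the 10, 15 remained with a pseudocount of 0.5, 0 with Spearman's correlation and 7 without the prefrontal cortex of animal 8. At a minimum of 10 counts, each of the 10 genes was present in 3 to 5 libraries, those of animal 8 among them except for the Reg3g value of its hippocampus.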
